A study of Mus musculus with 4 samples.

Results

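The interferon response genes described here are Rsad2, Ifit1, Ifit3, Isg15, Irf7, Oasl2, Usp18 and Ifi44, read at every array probe that carries one of these names. They were 8 of 27630 genes or transcripts on the array and had 11 of its 41174 probes: 3 for Rsad2, 2 for Ifi44 and 1 for each of the others. Total RNA was taken from mouse embryos at E13.5, from the limbs and from the brain. The groups were CKO limb, WT limb, CKO brain and WT brain, where CKO stands for conditional knockout of Rest, the gene of a zinc-finger repressor of neuronal genes. The labels state that Rest-floxed mice received doxycycline from E8.5 until E13.5 to switch on inducible Cre alleles, and they give this treatment and the mixed 129 and C57BL/6 background for WT and CKO samples alike. The promoter that drives Cre, the cells in which it acts and the number of embryos behind an RNA sample are not given in the sources used here. Each group had 1 array.

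Interferons are secreted proteins that warn cells of infection. Type I interferon binds a receptor that activates the kinases Jak1 and Tyk2, and these switch on a transcription factor complex that contains Stat2 and Irf9. That complex binds a short DNA motif, the interferon-stimulated response element, in front of genes such as the 8 described here. Without infection such genes are transcribed at a low, tonic level in many tissues, and resident macrophages and microglia can contribute to it.

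The members have distinct roles. Irf7 is a transcription factor that amplifies interferon production. Rsad2 encodes viperin, an enzyme that makes an antiviral nucleotide. Ifit1 and Ifit3 bind foreign RNA or partner with proteins that do, and Oasl2 is a member of the oligoadenylate synthetase family. Isg15 encodes a ubiquitin-like protein that is attached to other proteins, and Usp18 takes it off and also restrains the interferon receptor. Ifi44 encodes a cytoplasmic protein induced by interferon.

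The response element core was looked for in promoter windows from RefSeq (GRCm38.p6), which run from 250 bases before to 50 bases after the gene start. The core is GAAA, any 2 bases (NN) and GAAA again, and it was searched on both strands. Windows were found for 7 of the 8 members, all but Usp18, and 4 of the 7 held a match. Of all 32851 windows of this length, 3.44% held one. The stretches with a match are shown because these letters are shared by members whose signals are compared further on, with the matched letters in capitals and each stretch read from 5′ to 3′ on the gene's strand.
Rsad2, chr12:26456538-26456597, minus strand: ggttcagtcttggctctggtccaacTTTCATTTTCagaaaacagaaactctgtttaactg
Ifit1, chr19:34640760-34640838, plus strand: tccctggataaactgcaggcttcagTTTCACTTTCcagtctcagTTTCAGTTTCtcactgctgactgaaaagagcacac
Ifit3, chr19:34583348-34583441, plus strand: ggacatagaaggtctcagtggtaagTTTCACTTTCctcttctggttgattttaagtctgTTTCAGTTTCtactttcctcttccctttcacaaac
Isg15, chr4:156200850-156200921, minus strand: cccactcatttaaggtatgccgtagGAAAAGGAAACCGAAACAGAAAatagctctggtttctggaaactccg

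Rsad2 had 1 match, on the opposite strand, at positions -120 to -111 relative to the gene start. Ifit1 and Ifit3, both on chromosome 19, each had 2 separate matches on the opposite strand, and the letters of the 2 matches were the same in both genes. Isg15 had 3 matches that overlap one another in a single run on its own strand, at positions -78 to -57. The windows of Irf7, Oasl2 and Ifi44 held no match, which says only that these letters are absent there. The half-site of the REST element, TTCAGCACC, searched on both strands, was in none of the 7 windows and in 0.371% of all windows. A motif this rare would seldom be met in 7 windows, so its absence there says nothing about Rest at these genes.

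**Figure D1:**
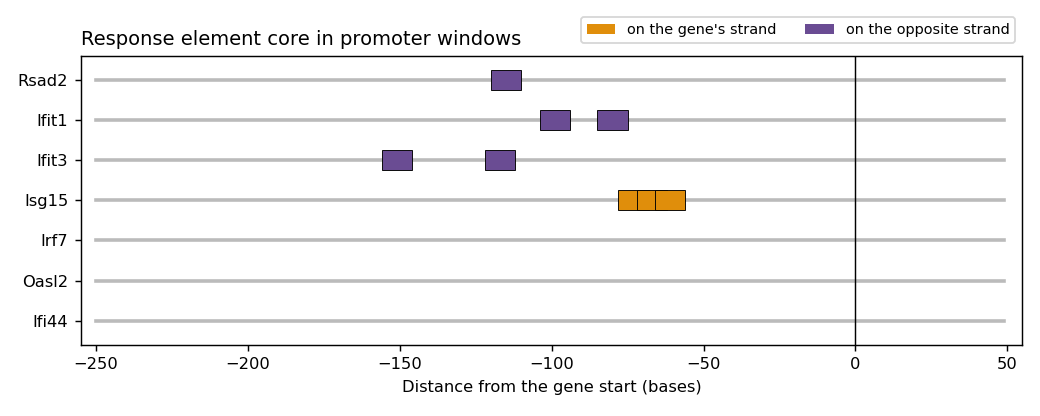
Position of the response element core in the promoter windows of 7 members. The horizontal axis is the distance from the gene start in bases, grey lines are the windows and boxes are matches, coloured by strand. Rsad2, Ifit1, Ifit3 and Isg15 hold matches between positions -156 and -57, and the other windows hold none.

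The array reads each transcript with probes of 60 bases. Most member probes lie in 1 uninterrupted stretch of the genome, but 3 of them span more genomic bases than their own length and so match separate stretches of it: 3039 bases for probe 2 of Rsad2, 3302 bases for probe 3, and 351 bases for the Irf7 probe (mm9). The sequences of these 3 probes are shown because they read joined stretches.
Rsad2, probe 2, chr12:27130424-27133462: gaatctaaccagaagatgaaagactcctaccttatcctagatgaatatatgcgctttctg
Rsad2, probe 3, chr12:27135585-27138886: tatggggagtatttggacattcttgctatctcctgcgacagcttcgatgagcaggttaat
Irf7, chr7:148450664-148451014: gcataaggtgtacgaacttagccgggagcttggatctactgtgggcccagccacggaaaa

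Signals are given as a percentage of the 75th percentile of signal on the same array, and differences are CKO minus WT on the log2 scale. The labels were checked first. Rest was lower in CKO at each of its 3 probes in both tissues; the probe at chr5:77709928-77709987 (mm9) was at 33.9% in CKO limb against 531% in WT limb, and at 7.53% in CKO brain against 89.7% in WT brain. All 12 brain neuron and progenitor markers were well above background on both brain arrays, and 8 on CKO limb and 7 on WT limb. All 12 limb mesenchyme, cartilage and muscle markers were on both limb arrays, and 10 on CKO brain and 7 on WT brain. Detection alone thus does not separate the tissues. The summed signal of the brain markers was 32282% in CKO brain and 35812% in WT brain, against 1650% in CKO limb and 973% in WT limb. That of the limb markers was 11447% and 10276% in CKO and WT limb, against 1349% and 746% in CKO and WT brain. Sox9 of the limb list was higher in brain in both genotypes, and Acan in CKO. The share of all probes well above background was 68.0% on CKO limb, 62.1% on WT limb, 70.0% on CKO brain and 64.1% on WT brain. The lowest signal that the scanner software called well above background was 17.1 on CKO limb and 25.2 on WT limb, and 13.7 on CKO brain and 21.9 on WT brain, so a dim probe was more readily called on the CKO arrays. All these are bulk tissues, in which fewer cells of a type and less RNA per cell cannot be told apart.

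Interferon response genes were below the 75th percentile of signal in all 4 samples, and most of their probes were below the median. The median signal of non-control spots was 112 on CKO limb, 95.2 on WT limb, 117 on CKO brain and 103 on WT brain. Above this median were the first Rsad2 probe and Isg15 on both limb arrays, and Oasl2 on WT limb and both brain arrays. No member probe reached 40% of the 75th percentile, as no value exceeded the 38.3% of the first Rsad2 probe in WT limb. Of the 11 member probes, 8 were well above background on CKO limb and 6 on WT limb, and 7 were on CKO brain and 3 on WT brain. The first Rsad2 probe, Isg15 and Oasl2 were well above background on all 4 arrays, or 27.3% of the member probes. Of all probes, 57.5% were well above background and unsaturated on all 4. Ifit1, probe 3 of Rsad2 and probe 2 of Ifi44 were well above background on no array, also 27.3%, near the 25.6% of all probes. The remaining 5 probes were measured on some arrays alone.

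**Figure D2:**
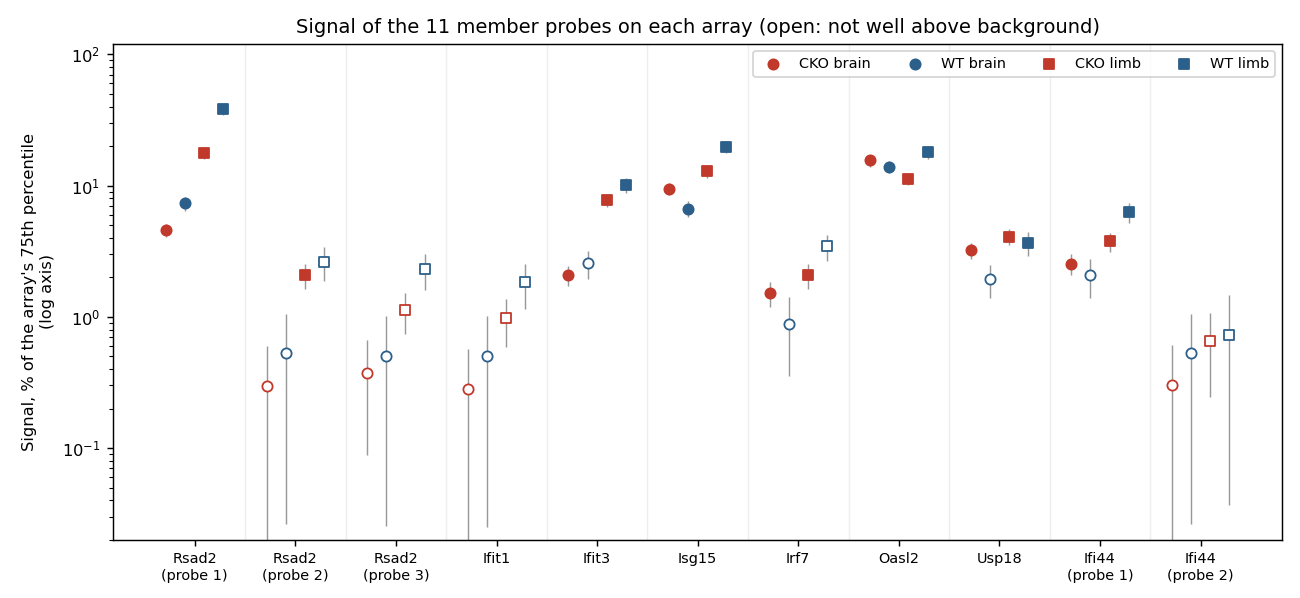
Signal of the 11 member probes on each array as a percentage of the array's 75th percentile (log axis). Circles are brain, squares limb, red CKO and blue WT; filled points are well above background, and bars are the scanner software's 1-SD signal error, which runs off the axis for the dimmest probes. The first Rsad2 probe spans 4.56% to 38.3% and is highest in WT limb.

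Viperin gene Rsad2 had the largest CKO minus WT difference in limb of the members measured on both arrays. Its first probe, at chr12:27127859-27127918 (mm9), stood at 17.8% in CKO limb against 38.3% in WT limb, and at 4.56% in CKO brain against 7.34% in WT brain. It was thus lower in CKO in both tissues, and both limb values exceeded both brain values. The difference was -1.11 in limb, 2.16-fold lower, and -0.69 in brain, 1.61-fold lower. The technical SD of a difference, taken from probes of similar brightness printed 10 times per array, was 0.10 in either tissue. This SD covers spot printing and reading, not labelling or differences between embryos. With normexp background correction the differences were -0.90 in limb, below 2-fold, and -0.41 in brain, below 1.5-fold.

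The dimmer Rsad2 probes were mostly not measured. Probe 2 was at 2.07% in CKO limb, where it was well above background, against 2.62% in WT limb, where it was not. Probe 3 was at 1.13% in CKO limb against 2.32% in WT limb, neither above background. In brain both probes stayed between 0.299% and 0.527%, in the range that the software does not separate from background.

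The modifier gene Isg15 differed in opposite directions in the tissues. It was at 12.8% in CKO limb against 19.8% in WT limb, and at 9.42% in CKO brain against 6.68% in WT brain. The difference was -0.63 in limb (technical SD 0.10), 1.54-fold lower, and 0.49 in brain (technical SD 0.12), 1.41-fold higher. Its limb signals exceeded its brain signals in both genotypes, more so in WT.

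Usp18, which removes Isg15 from its targets, was near the detection limit. It was at 4.08% in CKO limb against 3.66% in WT limb, a difference of 0.16 with a technical SD of 0.27. In brain it was at 3.21% in CKO and at 1.93% in WT, where it was not well above background, which makes it at least 1.32-fold higher in CKO brain. Neither difference was beyond 2 technical SDs.

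Oasl2 varied less between the samples than Rsad2 and Isg15. It was at 11.3% in CKO limb against 17.9% in WT limb, and at 15.6% in CKO brain against 13.9% in WT brain. The limb difference of -0.66 (technical SD 0.09) was 1.58-fold lower, and the brain difference of 0.17 (technical SD 0.09) was under 2 technical SDs. CKO limb held the lowest Oasl2 value and WT limb the highest, with both brain values between them.

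Ifi44 was lower in CKO limb. Its first probe was at 3.76% in CKO limb against 6.30% in WT limb, a difference of -0.75 (technical SD 0.27), 1.68-fold lower. In brain it was at 2.54% in CKO and at 2.07% in WT, where it was not well above background. The bound in brain was 0.06 (1.04-fold higher in CKO), well within its technical SD of 0.34. With quantile normalization or normexp it was 0, so no difference in brain can be told. Its second probe, designed on another transcript, lay between 0.303% and 0.733% on all arrays and was above background on none.

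Of the tetratricopeptide genes, Ifit3 was measured in limb and Ifit1 was not measured anywhere. Ifit3 was at 7.74% in CKO limb against 10.1% in WT limb, a difference of -0.38 (technical SD 0.24) that was under 2 technical SDs. In brain it was at 2.08% in CKO, well above background, and at 2.55% in WT, not well above it, and no fold is given. Ifit1 had signals of 9.07 ± 3.65 in CKO limb and 14.3 ± 5.41 in WT limb (signal ± the software's error), and of 2.84 ± 2.84 in CKO brain and 4.54 ± 4.53 in WT brain. Both brain signals were about as large as their errors.

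The transcription factor gene Irf7 was at 2.07% in CKO limb and 1.51% in CKO brain, well above background, and at 3.45% in WT limb and 0.883% in WT brain, not well above it. No fold is given in either tissue, since the CKO signals did not exceed the bound that the WT arrays allow.

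As a group, the members measured on both limb arrays were mostly lower in CKO limb, and in brain they went both ways. In limb 5 of 6 genes were lower, where 59.9% of all 16672 genes measured on both arrays were. Of the 5, Ifit3 was under 2 technical SDs. The median of the 6 was -0.65, with a range from -1.11 to 0.16, beside a median of -0.04 over all these genes. With Irf7, which has no measurable difference, set at 0, the median of 7 genes was -0.63. At least 1.5-fold lower were 4 of the 6, namely Rsad2, Isg15, Oasl2 and Ifi44, where the share over all genes measured on both arrays was 4.1%. With normexp background correction Isg15 (-0.49), Oasl2 (-0.45) and Ifi44 (-0.48) fell short of 1.5-fold, which left Rsad2 as 1 of 6. At least 2-fold lower was 1 of the 6, against 1.3% of all genes, 0 were at least 2-fold higher, against 1.57%, and 0 were at least 1.5-fold higher, against 3.57%. In brain 3 genes were measured on both arrays, with differences of -0.69, 0.17 and 0.49, beside a median of -0.02 over all 17086 genes. None of these 3 was at least 2-fold lower or higher, where 0.515% and 0.878% of all genes were, and Rsad2 alone was at least 1.5-fold lower, against 1.31%, a count that was 0 of 3 with normexp. None was at least 1.5-fold higher, against 2.7%. With 1 array per group no test of CKO against WT within a tissue can be made.

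**Figure D3:**
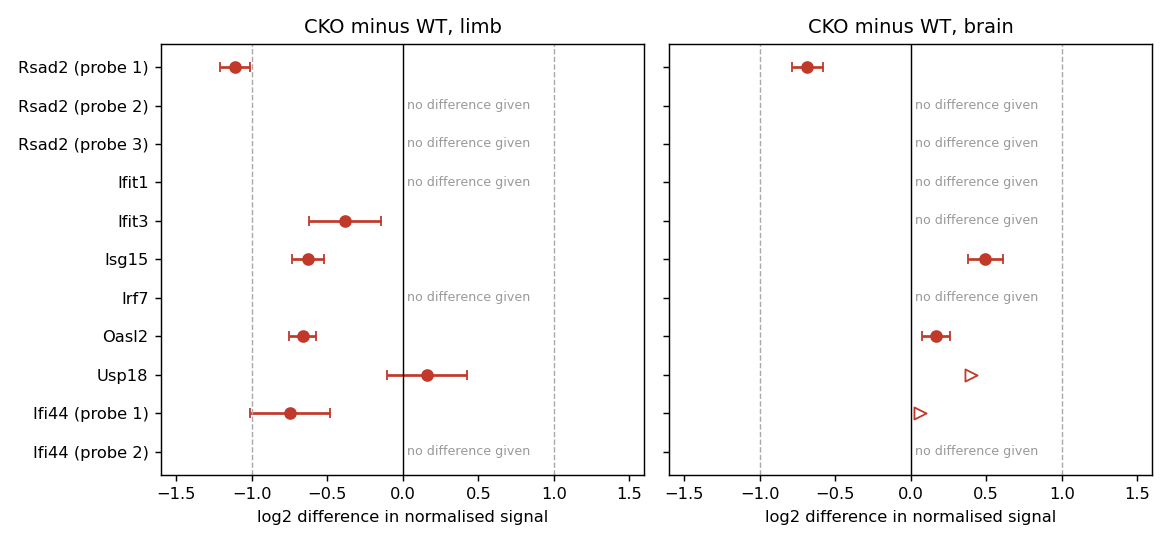
CKO minus WT differences of the member probes in limb (left) and brain (right), on the log2 scale. Filled points were measured on both arrays, with bars of 1 technical SD; open triangles are lower bounds, where WT was not well above background; dashed lines mark 2-fold. In limb 5 of 6 measured genes lie left of 0, where 59.9% of all genes measured on both arrays do. In brain Rsad2 alone lies left of 0.

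Genotype was also fitted over both tissues together, with limma on the 4 arrays and tissue as a block. This tested 23688 probes, 3 of them of members, and leaves 1 residual degree of freedom. No probe passed an adjusted p of 0.05 (0% of all probes), and 1634 had an unadjusted p below 0.05. Rsad2 was lower in CKO in 2 of 2 tissues, by a fitted -0.90 ± 0.14 (SE) with an adjusted p of 0.635 from limma. Fitted differences were -0.25 for Oasl2 (adjusted p 0.733, limma) and -0.07 for Isg15 (adjusted p 0.950, limma), each with 1 tissue on either side of 0. Limb difference minus brain difference was -1.12 for Isg15, -0.83 for Oasl2 and -0.42 for Rsad2; these have no residual degree of freedom and were not tested.

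Between tissues, Rsad2 and Ifit3 had the largest folds among the members, with lower signal in brain. CKO brain was 3.89-fold below CKO limb for Rsad2 and 3.72-fold below it for Ifit3. WT brain was 5.23-fold below WT limb for Rsad2 and at least 3.96-fold for Ifit3. Ifi44 was 1.48-fold lower in CKO brain than in CKO limb and at least 2.59-fold lower in WT brain than in WT limb. For Isg15 these values were 1.36-fold and 2.96-fold. Oasl2 was the exception among them: its CKO brain signal was above its CKO limb signal, by 0.46 log2, and its WT brain signal below its WT limb signal, by -0.37.

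The limma fit of brain against limb, with genotype as a block, called Rsad2 lower in brain, at -2.17 ± 0.14 (SE, adjusted p 0.00648), lower in 2 of 2 genotypes. In this fit 66.8% of all tested probes were called, 34.7% lower in brain and 32.1% higher, so a call is common. Isg15, at -1.01 ± 0.35 (SE, adjusted p 0.0970, limma), and Oasl2, at 0.05 ± 0.26 (SE, adjusted p 0.883, limma), did not pass. Without the CKO brain array, in a fit of tissue alone, Rsad2 was at -1.83 with an adjusted p of 0.0845 (limma).

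The rest of the pathway was read from lists of genes, with 1 probe per gene, the brightest on average. The interferons themselves were almost silent. Of 7 ligand genes on the array, among them Ifnb1, Ifng and Ifna4, none was well above background on CKO limb, WT limb or WT brain, and Ifnl3 alone was on CKO brain, at 2.24%.

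The receptors and their kinases were expressed throughout, and they differed little by genotype. All 12 receptor and signalling genes were well above background on all 4 arrays. Their median CKO minus WT difference was -0.08 in limb and -0.04 in brain. Jak1, the kinase bound to the receptor, was at 776% in CKO limb against 831% in WT limb, and at 487% in CKO brain against 499% in WT brain. Stat2 differed by -0.03 in limb and -0.10 in brain, and Irf9 by -0.28 and -0.11. Ifnlr1, the receptor of type III interferon, stood apart with 16.7% in CKO brain against 6.38% in WT brain, a difference of 1.39, and with 0.03 in limb. In the tissue fit 9 of the 12 were lower in brain and 2 higher.

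Among other interferon regulatory factors, 6 of 7 were measured on every array, with median differences of -0.10 in limb and 0.15 in brain. Irf1, itself induced by interferon, was at 98.4% in CKO limb against 114% in WT limb, and at 32.7% in CKO brain against 27.6% in WT brain. Irf4 was above background nowhere.

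Sensors of foreign nucleic acid and their adaptors, read as 1 list, leaned lower in CKO limb. In limb 12 of 13 measured on both arrays were below 0, with a median of -0.24, and in brain 4 of 11 were, with a median of 0.04. Some of the 12 were within 1 technical SD of 0, such as Ticam1 (-0.01, technical SD 0.06) and Traf3 (-0.01, technical SD 0.03). In limb 1 of the 13 was at least 1.5-fold lower and 0 higher, against 4.1% and 3.57% of all genes. For the RNA sensor genes the limb difference was -0.45 for Rigi and -0.43 for Ifih1, and for their adaptor Mavs -0.47. Tlr7, an endosomal RNA receptor, was at 4.62% in CKO limb against 7.48% in WT limb, 1.62-fold lower. Zbp1, a sensor of Z-form nucleic acid, was not well above background in CKO limb and at least 2.41-fold lower there. Over all genes measured on both arrays, 59.9% were below 0 in limb and 57.9% in brain.

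Enzymes that attach Isg15 to proteins were on all 4 arrays. Of the 4, the conjugating enzyme gene Ube2l6 differed most, at 43.9% in CKO limb against 69.0% in WT limb, a difference of -0.65, and by 0.19 in brain. The activating enzyme gene Uba7 differed by -0.05 in limb and 0.43 in brain. Negative regulators and nucleic acid enzymes, such as Socs1 and Adar, had medians of -0.05 in limb and 0.01 in brain, and none of the 10 differed by 1.5-fold in either tissue.

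The other interferon-induced antiviral genes had medians of -0.23 in limb and 0.37 in brain. In limb 16 of 24 measured on both arrays were below 0, a share near the 59.9% of all genes; 3 were at least 1.5-fold lower and 1 higher, against 4.1% and 3.57% of all genes. In brain 4 of 19 were below 0, against 57.9% of all genes; 3 were at least 1.5-fold higher and 0 lower, against 2.7% and 1.31%. The DNA-binding gene Ifi204 was at 19.9% in CKO limb against 33.7% in WT limb, and at 9.73% in CKO brain against 7.55% in WT brain. Its relative Ifi203 was 1.87-fold lower in CKO limb and differed by -0.38 in brain. Parp9 was at 11.6% in CKO brain against 5.31% in WT brain, 2.19-fold higher, and differed by 0.05 in limb; Ifi27l2a was 1.63-fold higher in CKO brain.

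Genes more typical of interferon gamma had medians of -0.24 in limb and 0.45 in brain, over 12 and 7 genes measured on both arrays. Gbp2, a GTPase that attacks intracellular microbes, was 1.58-fold lower in CKO limb, and the proteasome subunit gene Psmb9 was 1.52-fold higher in CKO brain. Cxcl10, a chemokine, was at 9.29% in CKO limb against 4.99% in WT limb, 1.86-fold higher, the opposite direction to most members. Psmb8 was at 11.4% in CKO brain against 88.3% in WT brain, but another probe of the gene went the opposite way.

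**Figure D4:**
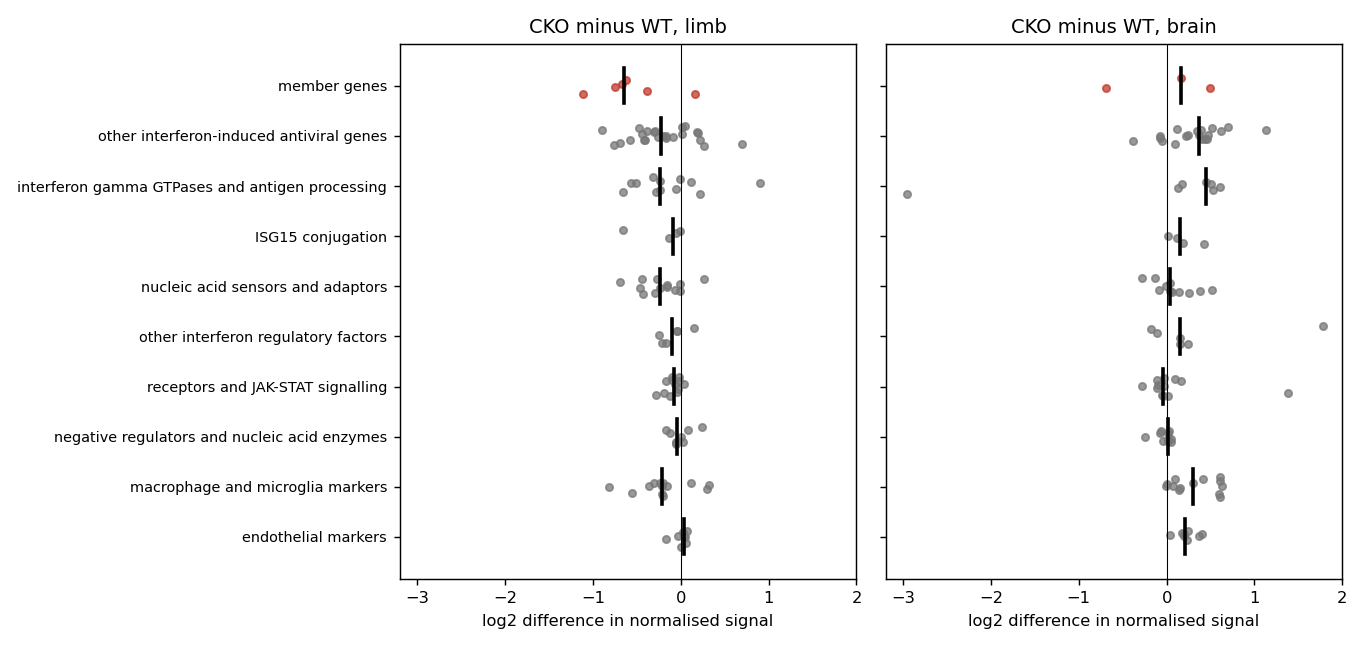
CKO minus WT differences (log2) of genes measured on both arrays of a tissue, by gene list, in limb (left) and brain (right). Each point is a gene, red for the members, and black bars are list medians. Medians of the antiviral list are -0.23 in limb and 0.37 in brain, and those of the macrophage and microglia markers are -0.21 and 0.31.

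Markers of macrophages and microglia also differed between CKO and WT. All 13 macrophage and microglia markers were well above background on all 4 arrays. Their median difference was -0.21 in limb, where 10 of 13 were below 0 against 59.9% of all genes, and 0.31 in brain, where 1 of 13 was against 57.9%. Their summed signal was 1748% in CKO limb against 2087% in WT limb, and 990% in CKO brain against 817% in WT brain. The macrophage receptor gene Csf1r differed by -0.36 in limb and 0.07 in brain, Pf4 by -0.81 and 0.00, and C1qa by 0.30 and 0.63. The part of these cells in the differences of the members was not tested.

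Marker genes of other cell types were compared as well. The granulocyte genes S100a8, S100a9 and Mpo were 2.94-fold, 2.34-fold and 3.04-fold higher in CKO limb. S100a9 was at 53.6% in CKO brain against 7.15% in WT brain. Another granulocyte gene, Elane, and the plasmacytoid dendritic cell gene Siglech were above background nowhere. Of 7 red cell genes measured on both limb arrays 3 were below 0, with a median of 0.02. Among them, Alas2 and Slc4a1 differed by -1.79 and -1.51 in limb and by -0.41 and -0.45 in brain, and Epor, the erythropoietin receptor gene, was higher in CKO in both, by 1.47 and 1.39. Endothelial markers had a median of 0.03 in limb and 0.21 in brain. Of the cartilage genes, Acan was at 57.1% in CKO brain against 3.45% in WT brain and Col2a1 at 679% against 208%. Sox9, which is also expressed outside cartilage, was at 405% against 400%. The part of cartilage in the brain values was not tested.

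Genes with the pattern most like the members were sought over the 4 arrays. The pattern was the mean of Rsad2, Isg15 and Oasl2, each centred on its own mean, and likeness was the root-mean-square distance in log2 units among 15626 genes measured on all arrays. The nearest were Galnt5 (0.0383), F13a1 (0.0611), the unnamed transcript TC1646500 (0.0617), Nr1i3 (0.0628) and Olfr1198 (0.0643). F13a1, a clotting factor subunit known from tissue macrophages, differed by -0.75 in limb and 0.14 in brain. With 4 points, 19 genes lay within 0.1 of the pattern, and the distances are a description.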

How the data were processed

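Scanner output came from the software Agilent Feature Extraction, version 9.5.3.1 according to the submitters' processing notes. The intensities deposited by the authors were background-subtracted and detrended within each array, per the file headers, with no scaling between arrays; spots not above background hold a substitute value. The depth of an array is fixed, and 1 array per group limits the precision.

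Control and outlier spots were left out. Each array's 75th percentile of signal, on the log2 scale, was subtracted, and spots of a probe were averaged. Differences against a probe not well above background are bounds, taken against the higher of its own signal and the lowest signal well above background on that array; where the measured signal did not exceed that limit no fold is given, and medians count the gene at 0. Probes were named in the files; 26933 of 41174 were named through their accession for the lists, and 7777 kept the file's name. Probe positions are on mm9. Technical SDs are medians over the 50 nearest in level of 245 probes printed 10 times.

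Fits used limma 3.58.1 in R 4.3.3 with Benjamini-Hochberg adjustment over all probes well above background and unsaturated on all 4 arrays, and were tested on simulated data. Arrays are single samples. In the blocked fits the residual holds how far the CKO minus WT difference departs between limb and brain, combined with limma's prior over all probes. In the fits without the block it holds the differences between arrays of a group. These p-values therefore do not measure the spread between embryos. Alternatives were median scaling, quantile normalization, normexp (offset 50), the deposited series table, other detection filters, the mean of all probes and fits without the block. Calculations used Python 3.11.15 with numpy 2.4.6 and pandas 2.3.3. The members, lists and comparisons were chosen with earlier results of these data known. Genes named were Rest, the members, the 4 list genes that differed most (1.5-fold or more, measured on both arrays of a tissue), and the 5 most similar in pattern; others were named after their values were seen. Some results that the naming rule covers are not reported here.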

Additional observations from a re-analysis of the deposited data

Results flagged for a closer look

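Isg15 and Oasl2 had CKO minus WT differences of opposite sign in limb and brain, each larger than its technical SD. The Oasl2 difference in brain, 0.17, was under 2 technical SDs. It was also below the error of 0.22 that the scanner software's signal errors give for it, so its sign in brain is not settled. For Isg15 in brain that error was 0.25, against a difference of 0.49. Limb difference minus brain difference was -1.12 log2 for Isg15 and -0.83 for Oasl2. With 1 array per group this difference between tissues was not tested. With normexp background correction the Isg15 differences were -0.49 in limb and 0.18 in brain, and those of Oasl2 were -0.45 and 0.04.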

How the results depend on the processing

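The median difference of the members in limb kept its direction under every alternative run, between -0.65 and -0.45. The brain median lay between 0.00 and 0.17. With normexp 1 of 6 members, Rsad2, was at least 1.5-fold lower in limb, against 4 of 6, and Rsad2 in brain was at -0.41. The limb minus brain difference, a median over 3 genes of -0.83, was -0.49 with normexp; the cause was not tested, and the alternatives for this result were chosen after seeing the data. For brain against limb, 1 of 3 member probes was called by the blocked fit, where 66.8% of all probes were, 5 of 11 over all non-control probes (52.4% of all) and 2 of 3 with tissue alone (66.6% of all). The 5 include Ifit1 and probe 3 of Rsad2, well above background on no array. Leaving out 1 array at a time, in a fit of tissue alone because the blocked fit has no residual degree of freedom on 3 arrays, gave 0 to 2. Against the fit of tissue alone on 4 arrays, Rsad2 lost its call without CKO brain, and Isg15 (adjusted p 0.0439, limma) kept its call without CKO limb (0.0210) and lost it without WT limb (0.0906), WT brain (0.156) or CKO brain (0.0625). For CKO against WT over both tissues, 1 member probe, Ifit1, was called over all non-control probes, at -0.87 with an adjusted p of 0.0398 (limma), against 0 otherwise; it was well above background on no array, and over all probes that fit called 5308 lower and 78 higher; the cause was not tested. With normexp the Usp18 difference in limb was -0.08, against 0.16, both within its technical SD. With 1 array per group, CKO and WT samples could not be paired within a tissue. The blocked fit matched limb and brain arrays by genotype alone, since the labels carry no replicate numbers. Dim signals limit what can be said of Ifit1, Irf7, Usp18 and the second probe of Ifi44.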
